A study of Mus musculus with 2 samples.

Results

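The genes described here act in sphingosine 1-phosphate (S1P) signalling: the receptor genes S1pr1, S1pr2, S1pr3 and S1pr4, the sphingosine kinase genes Sphk1 and Sphk2, and the S1P-degrading enzyme genes Sgpl1 and Sgpp1. They were chosen by pathway with their read counts in these libraries and the KO over WT ratios of those counts in view, were taken by symbol, and all 8 were among the 46095 genes of the deposited count table. RNA sequencing compared bone marrow-derived macrophages of C57BL/6 mice after 5 days in DMEM with 100 ng/ml M-CSF, the growth factor that drives marrow progenitors toward macrophages. The KO library had the genotype label TIPE1-/-, and the series design describes its mice as LyzM-Cre; Tipe1f/f, in which Cre recombinase is driven from the Lyz2 locus in myeloid cells. The WT library had the label wild type, and its mice are described as Tipe1f/f without Cre, so both groups carried floxed alleles. Each genotype had 1 library, called KO and WT below. How many mice were pooled for a library and which exons Cre removes is not stated in the labels.

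S1P is a lipid signal made when sphingosine is phosphorylated by the sphingosine kinases. It leaves the cell through transporters and binds G protein-coupled receptors that steer migration, adhesion and survival of immune cells. It is removed by phosphatases, which return it to sphingosine, or by S1P lyase, which cleaves it for good. In macrophages the receptors have been linked to chemotaxis and to the balance of inflammatory and repair programmes.

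Total counts were 15815956 reads in KO and 11782664 in WT. Counts were scaled to CPM, reads per 1000000 with TMM library sizes, and the 12495 genes whose CPM averaged at least 1 across the libraries are called tested. For a gene to count as higher or lower, its CPM had to differ by 1.5-fold or more with a 95% counting interval of the ratio that excluded 1. With 1 library per genotype no difference has a replicate check, and the intervals cover counting error only. The targeted gene Tnfaip8l1, which encodes TIPE1, had 3 reads in KO and 21 in WT, and reads outside the deleted exons would not register the deletion. Lyz2, the locus of the Cre allele, stood at 8028 CPM in KO and 14958 CPM in WT. As the mice are described, KO mice carried Cre and WT mice did not, so the Cre allele and the deletion cannot be told apart in any difference given here.

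Of the 5 genes above 10 CPM, S1pr1 alone was counted as different between the libraries. S1pr1 was 2.17-fold lower in KO, S1pr2 differed by 1.19-fold in the other direction, and S1pr3 and S1pr4 had 27 reads or fewer in each library. Of the enzyme genes, Sphk2, Sgpl1 and Sgpp1 lay within 1.06-fold of WT, and Sphk1 was lower at few reads. Of the 7 tested genes 3 were counted as lower (S1pr1, S1pr4 and Sphk1), 0 as higher and 4 as neither, whereas S1pr3 was too low to be tested. Over all tested genes 13.7% were counted in either direction, 6.47% as higher and 7.23% as lower. The genes were chosen with these values in view, so nothing is read from their count against that background. At 2-fold in place of 1.5-fold, S1pr1 and S1pr4 were counted as lower, beside 4.78% of tested genes.

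**Figure D1:**
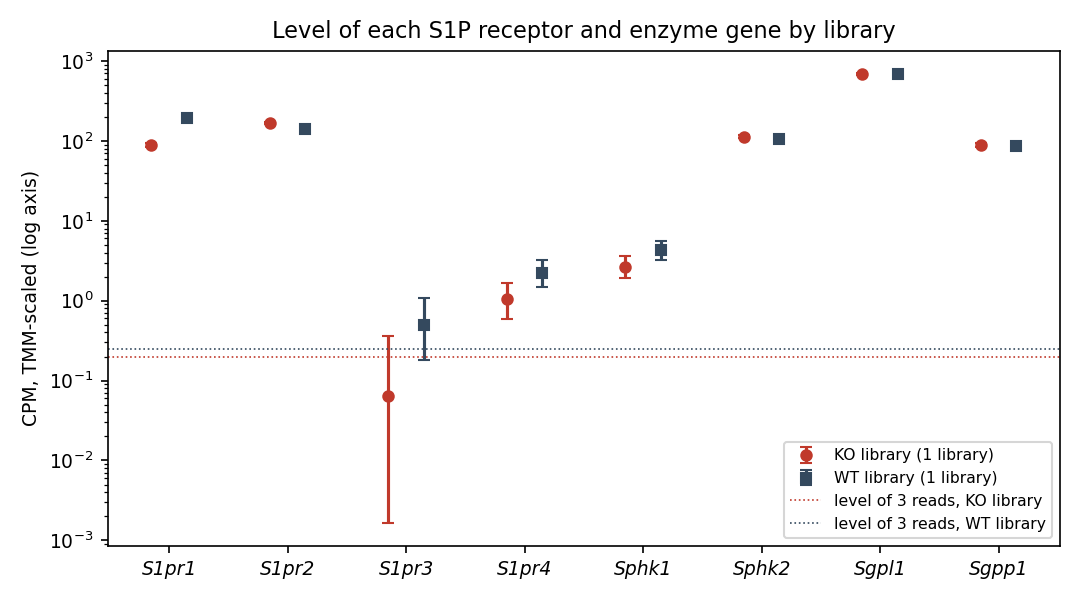
Level of each gene in CPM (log axis) in KO (circles) and WT (squares), with exact Poisson 95% bars and dotted lines at the level of 3 reads. S1pr1 shows the widest gap among the genes above 10 CPM, at 89.5 CPM in KO and 194.6 CPM in WT, while S1pr3, S1pr4 and Sphk1 lie below 5 CPM in both.

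S1pr1 (ENSMUSG00000045092.8, protein-coding; GRCm38 chr3:115710433-115715072, minus strand) encodes a receptor that couples to Gi and drives Rac-dependent migration toward S1P. It had 1381 reads in KO and 2350 in WT, despite the larger total of the KO library. Its level was 89.5 CPM (84.8 to 94.4, exact Poisson 95% interval) in KO and 194.6 CPM (186.8 to 202.6) in WT, and these intervals did not overlap. The KO over WT ratio was 0.460 (0.430 to 0.492), which is 2.17-fold lower (2.03 to 2.32), a log2 ratio of -1.12 after 0.5 CPM was added to both values. A log2 ratio as low or lower was found for 448 of the 12495 tested genes.

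S1pr2 (ENSMUSG00000043895.6, protein-coding; chr9:20962361-20976781, minus strand) encodes a receptor that also couples to G12/13 and can restrain migration. It had 2592 reads, 168.0 CPM, in KO and 1709 reads, 141.5 CPM, in WT. The ratio was 1.19 (1.12 to 1.26), above 1 beyond counting error but inside the 1.5-fold limit. The counting interval excludes a difference as large as that of S1pr1 in either direction.

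S1pr3 (ENSMUSG00000067586.4, protein-coding; chr13:51408639-51422797, plus strand) encodes a receptor known from endothelial, smooth muscle and stromal cells. It had 1 read in KO and 6 in WT, a ratio of 0.130 with an interval of 0.00284 to 1.08 that includes 1. A difference was not resolved at this depth. S1pr4 (ENSMUSG00000044199.6, protein-coding; chr10:81497747-81500132, minus strand) encodes a receptor found mainly in blood and lymphoid cells. It had 16 reads, 1.04 CPM, in KO and 27 reads, 2.24 CPM, in WT, 2.16-fold lower with a wide interval of 1.12 to 4.28.

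**Figure D2:**
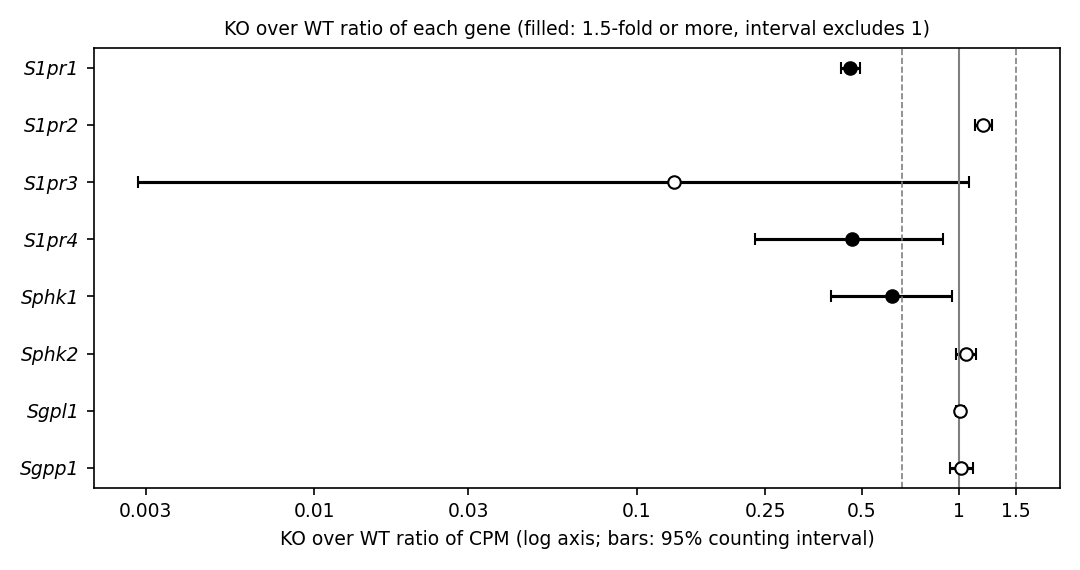
KO over WT ratio of CPM (log axis) with 95% counting intervals for each gene, a solid line at 1 and dashed lines at 1.5-fold in each direction. The interval of S1pr1 (0.430 to 0.492) lies wholly beyond the dashed line, those of S1pr4 and Sphk1 cross it, and Sphk2, Sgpl1 and Sgpp1 sit at 1.05, 1.01 and 1.02.

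The make-up of the receptor reads differed between the libraries, a measure that needs no scaling between them. S1pr1 gave 34.6% of the 3990 reads of the 4 receptor genes in KO (33.1 to 36.1, exact Clopper-Pearson 95% interval) and 57.4% of 4092 in WT (55.9 to 59.0). S1pr2 gave 65.0% (63.5 to 66.4) in KO and 41.8% (40.2 to 43.3) in WT. There were 0.533 S1pr1 reads for each S1pr2 read in KO and 1.38 in WT. The genes differ in length, and per kb of exon S1pr1 was above S1pr2 in both libraries (values below). S1pr1 has 3046 exon bases from 1 annotated transcript, and S1pr2 has 7971 summed over 4. In KO, where S1pr1 had fewer reads than S1pr2, the order rests on these lengths. Shares of genes of different length are compared here between libraries only. S1pr4 gave 0.401% of receptor reads in KO and 0.660% in WT, and S1pr3 gave 0.0251% in KO and 0.147% in WT. Summed over the 4 genes, receptor reads came to 258.6 CPM in KO and 338.8 CPM in WT, a ratio of 0.763 (0.731 to 0.798).

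**Figure D3:**
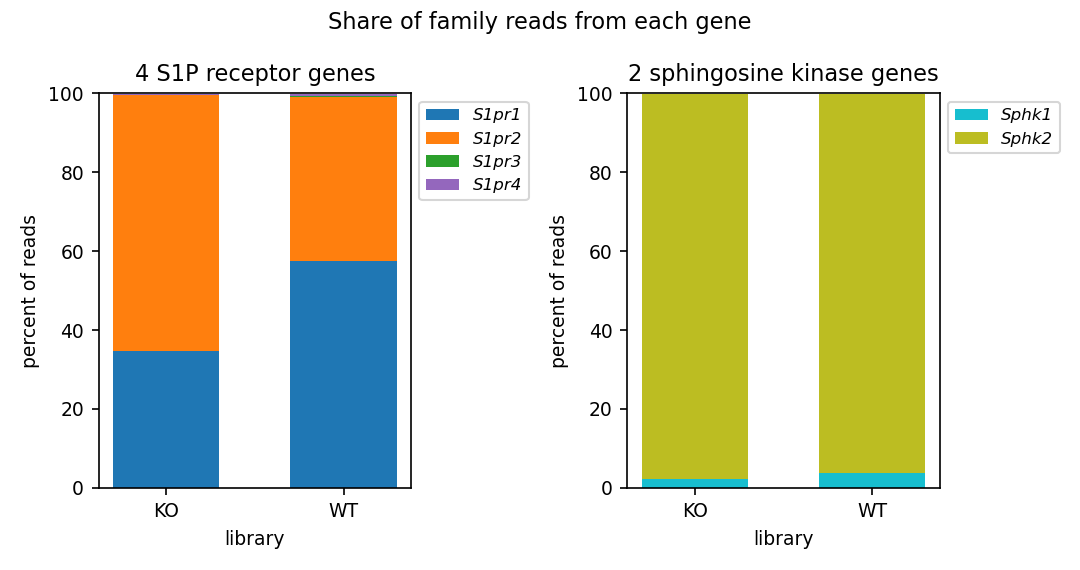
Share of the reads of the 4 receptor genes (left) and of the 2 kinase genes (right) that came from each gene, as stacked bars in percent for the KO and WT libraries. S1pr1 takes 34.6% of receptor reads in KO and 57.4% in WT, whereas Sphk2 takes over 96% of kinase reads in both.

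Most kinase reads were counted for Sphk2, which also stood above Sphk1 per kb of exon in both libraries (values below). Sphk1 (ENSMUSG00000061878.15, protein-coding; chr11:116530925-116536674, plus strand) encodes the mainly cytosolic kinase that moves to the plasma membrane on stimulation. It had 41 reads, 2.66 CPM, in KO and 52 reads, 4.31 CPM, in WT, a ratio of 0.617 (0.400 to 0.948). The Poisson intervals of the levels, 1.91 to 3.60 CPM in KO and 3.22 to 5.65 CPM in WT, overlapped. Sphk2 (ENSMUSG00000057342.15, protein-coding; chr7:45709467-45718002, minus strand) encodes the kinase found largely in the nucleus and other organelles. It had 1739 reads, 112.7 CPM, in KO and 1293 reads, 107.1 CPM, in WT, a ratio of 1.05 (0.979 to 1.13). Sphk2 gave 97.7% of kinase reads in KO and 96.1% in WT.

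The degrading enzymes were level between the libraries. Sgpl1 (ENSMUSG00000020097.14, protein-coding; chr10:61098642-61147703, minus strand) encodes S1P lyase, the exit of the pathway. It had 10630 reads, 689.0 CPM, in KO and 8262 reads, 684.0 CPM, in WT, a ratio of 1.01 (0.979 to 1.04). Sgpp1 (ENSMUSG00000021054.6, protein-coding; chr12:75714249-75735729, minus strand) encodes the S1P phosphatase of the endoplasmic reticulum. It had 1359 reads, 88.1 CPM, in KO and 1048 reads, 86.8 CPM, in WT, a ratio of 1.02 (0.936 to 1.10). Counting error leaves room for a difference of at most 1.10-fold in Sgpp1 and 1.04-fold in Sgpl1.

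The labels do not state whether counting used strand, so reads of overlapping genes can fall on the wrong gene. In GENCODE M21 the exons of Sphk2 share 373 bases with Rpl18 and 539 with Dbp, both on the opposite strand. Rpl18, a ribosomal protein gene, had 3539 reads in KO and 2854 in WT, and the part of Sphk2 reads that came from it cannot be told apart. The level of Sphk2 and its share of kinase reads carry this limit. Exons of Sphk1 share 192 bases with an antisense gene, Gm29292, and those of S1pr3 share 45 bases with Gm32834. No annotated gene overlapped S1pr1, S1pr2, S1pr4 or Sgpp1.

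Levels were compared between genes only after division by the summed exon length of each gene in GENCODE M21. These lengths join the exons of all annotated transcripts of a gene, and GENCODE M21 may differ from the annotation used for counting. In the KO library Sgpl1 led at 112 CPM per kb, followed by S1pr1 at 29.4, Sphk2 at 27.1, S1pr2 at 21.1 and Sgpp1 at 15.6 CPM per kb. In the WT library Sgpl1 stood at 111 CPM per kb, S1pr1 at 63.9, Sphk2 at 25.7, S1pr2 at 17.8 and Sgpp1 at 15.4 CPM per kb. S1pr1 therefore held the same place in both libraries, but its Poisson interval (27.9 to 31.0 CPM per kb) overlapped that of Sphk2 (25.8 to 28.4) in KO and lay far above it (61.3 to 66.5 against 24.4 to 27.2) in WT. The remaining genes were below 1 CPM per kb. Sphk1 stood at 0.557 CPM per kb in KO and 0.902 in WT, and S1pr4 at 0.435 in KO and 0.937 in WT. The intervals of these neighbours overlapped within each library. S1pr3 was last, at 0.0145 CPM per kb in KO and 0.111 in WT.

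The upstream sequences of the genes were set beside these levels, since the genes fall into a well expressed and a barely expressed group. RefSeq promoter sequences (GRCm38.p6) were matched for 7 of the 8 genes, all but S1pr1. For each, the 250 bases before the most upstream listed start were read. The windows shown are those that hold no annotated exon of any gene, each 5′ to 3′ on the strand of its gene, with every CpG, the pair of bases at which vertebrate DNA is methylated, in capitals. They are S1pr2 (chr9:20976794-20977043, minus), S1pr3 (chr13:51408368-51408617, plus), S1pr4 (chr10:81500138-81500387, minus) and Sgpp1 (chr12:75735730-75735979, minus).
S1pr2: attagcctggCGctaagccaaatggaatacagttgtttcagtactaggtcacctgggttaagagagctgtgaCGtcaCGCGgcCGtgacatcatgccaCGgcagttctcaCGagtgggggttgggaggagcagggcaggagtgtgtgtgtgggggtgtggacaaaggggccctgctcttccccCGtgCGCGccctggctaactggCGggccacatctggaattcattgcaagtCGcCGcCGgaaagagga
S1pr3: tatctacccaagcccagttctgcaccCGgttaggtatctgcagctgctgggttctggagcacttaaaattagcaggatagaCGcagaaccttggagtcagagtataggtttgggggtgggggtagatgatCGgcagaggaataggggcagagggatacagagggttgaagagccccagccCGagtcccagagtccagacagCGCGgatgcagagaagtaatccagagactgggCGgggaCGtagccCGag
S1pr4: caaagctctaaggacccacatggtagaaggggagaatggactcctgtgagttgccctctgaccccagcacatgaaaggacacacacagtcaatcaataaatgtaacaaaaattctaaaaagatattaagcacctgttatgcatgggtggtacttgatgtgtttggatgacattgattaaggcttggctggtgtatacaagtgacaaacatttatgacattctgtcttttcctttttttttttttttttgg
Sgpp1: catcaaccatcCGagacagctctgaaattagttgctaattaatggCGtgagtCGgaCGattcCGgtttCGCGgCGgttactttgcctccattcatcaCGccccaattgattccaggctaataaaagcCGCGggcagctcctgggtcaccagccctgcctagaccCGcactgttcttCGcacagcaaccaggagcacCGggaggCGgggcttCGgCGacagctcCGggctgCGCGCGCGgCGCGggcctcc

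The window of S1pr4 held 0 CpG and that of Sphk1 held 4, while S1pr3 had 9, S1pr2 had 14, Sgpp1 had 24, Sphk2 had 27 and Sgpl1 had 31. The median over 27025 genes was 6. The 4 genes with 14 or more CpG were at 15.4 CPM per kb or more in both libraries, and the 3 with 9 or fewer were at 0.937 CPM per kb or less. This is a description of 7 chosen genes, seen after their levels were known. The groups part between 9 and 14 CpG and not at the median, which S1pr3 exceeded. Sphk1 had 5 listed starts and Sphk2 had 2, and windows at their other starts were not read. Annotated exons of any gene covered 233 bases of the Sphk2 window, 175 of the Sphk1 window and 19 of the Sgpl1 window. The CpG and motif counts of those windows were thus taken over exon sequence as well, and counts without it are not given. The letters TGACGTCA, the cAMP response element, were found in the window of S1pr2 and of no other of the 7, and in 1.60% of all windows. The letters TATAAA, on either strand, were found in that of Sphk1 and in 12.98% of all windows. CACCC, on either strand, was found in 4 of the 7 and in 51.3% of all windows, and GGGCGG in 3 of the 7 and in 33.0%. In the 7 windows 0 matches of different motifs overlapped, and a match is not a shown binding site.

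Marker RNA of some cell types other than macrophages also differed between the libraries. In bulk RNA, fewer cells of a type and less RNA per cell cannot be told apart. Macrophage markers came to 21780 CPM in KO and 27438 CPM in WT, and of the 13, all tested, 1 was higher, 2 lower and 10 neither. The lower sum rests on Lyz2, the Cre locus: without it the other 12 came to 13752 CPM in KO and 12480 CPM in WT. Of those 12, 6 had ratios below 1. The higher marker was Adgre1, which encodes F4/80, at 2554 CPM in KO and 1064 CPM in WT. That gap is wider than the gap of the 12-marker sum, which therefore rests on Adgre1. Of 15 tested fibroblast and stromal markers 14 were lower and 0 higher, and the list summed to 184 CPM in KO and 2032 CPM in WT, with Tagln listed at 0 in both. Monocyte markers, 5 of 8 lower and 0 higher, summed to 412 CPM in KO and 1141 CPM in WT. Endothelial markers summed to 56.7 CPM in KO and 52.7 CPM in WT, with 1 of 5 tested higher (Vwf), 2 lower and Cldn5 listed at 0 in both. Without Vwf they summed to 24.6 CPM in KO and 34.9 CPM in WT, and the other 4 tested markers all had ratios below 1. T and NK cell markers summed to 37.3 CPM in KO and 25.8 CPM in WT, with 2 of 5 tested higher (Cd4 and Cd8a), 0 lower and Trac listed at 0 in both. Without Cd4 the sum was 9.66 CPM in KO and 8.28 CPM in WT, and Cd3e had 20 reads in each library. B cell markers summed to 50.0 CPM in KO and 59.2 CPM in WT, with 4 of 5 tested lower, 0 higher and Ighm listed at 0 in both. Without Cd22, which made up most of that sum, they came to 2.46 CPM in KO and 12.7 CPM in WT, 5.14-fold lower. Neutrophil markers, of a cell type known to carry S1pr4, summed to 848 CPM in KO and 1129 CPM in WT, with 4 of 11 tested lower and 0 higher. Erythroid and megakaryocyte markers summed to 8.49 CPM in KO and 14.2 CPM in WT, with 1 of 2 tested lower and 0 higher. The part of these cell types in the levels of S1pr1, S1pr3, S1pr4 and Sphk1 was not tested.

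**Figure D4:**
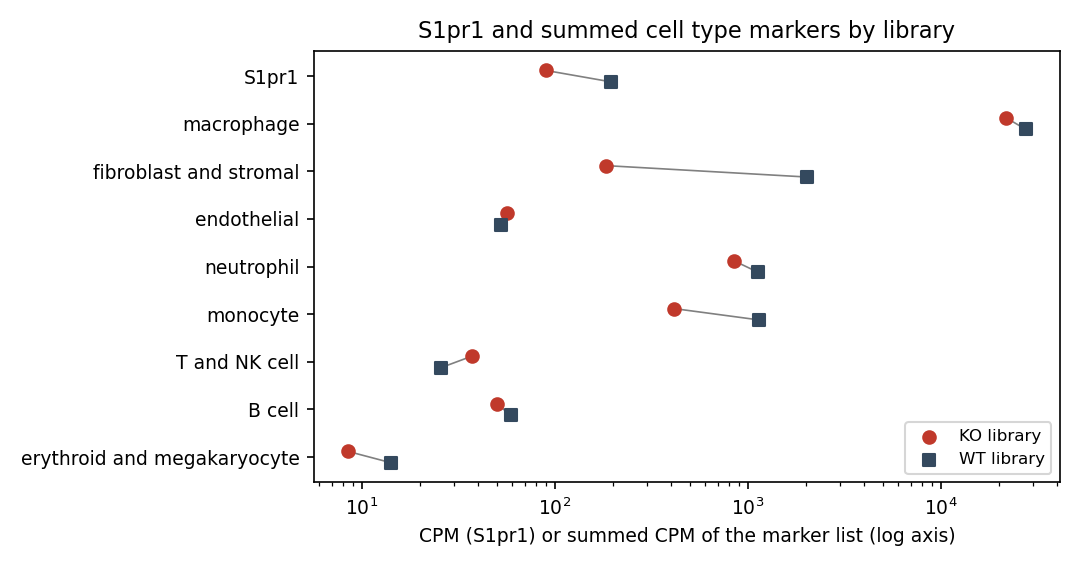
S1pr1 in CPM and the summed CPM of each cell type marker list (log axis) in KO (circles) and WT (squares). The stromal sum shows the widest gap, 184 CPM in KO and 2032 CPM in WT, and the endothelial sum of 56.7 CPM in KO and 52.7 CPM in WT includes Vwf, without which it is 24.6 CPM in KO and 34.9 CPM in WT.

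The other sphingolipid pathway genes were mostly level. Of 49 listed genes 38 were tested, and 1 was counted as higher, 0 as lower and 37 as neither, beside 6.47% and 7.23% over all tested genes. Their median log2 ratio was 0.04, beside 0.01 over all tested genes. Smpdl3b, which encodes a membrane-bound sphingomyelinase-like phosphodiesterase, was the higher gene, with 207 reads, 13.4 CPM, in KO and 74 reads, 6.13 CPM, in WT, a ratio of 2.19 (1.67 to 2.90). The related Smpdl3a stood at 400 CPM in KO and 397 CPM in WT.

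The routes that feed and drain the S1P pool showed small differences in both directions. All 8 tested genes of de novo synthesis counted as neither, from Kdsr, the ketosphinganine reductase gene, at 0.697 (0.600 to 0.809) to Degs2 at 1.45 (1.15 to 1.85). Kdsr passed the 1.5-fold limit when total counts were used for scaling, with a ratio of 0.663. Of the ceramidases, which release sphingosine from ceramide, Asah2 had a ratio of 1.47 (1.29 to 1.68), Acer3 of 1.34 (1.21 to 1.49) and Asah1, the lysosomal acid ceramidase gene, of 0.916 (0.880 to 0.953). Ceramide synthase gene Cers6 had a ratio of 1.37 (1.31 to 1.44), whereas Cers2 stood at 353 CPM in KO and 328 CPM in WT. The sphingomyelin synthase gene Sgms2 had a ratio of 1.43 (1.28 to 1.61). Psap, the precursor of the saposins and the gene with the most reads of the list, stood at 13228 CPM in KO and 12541 CPM in WT, and the ceramide kinase gene Cerk at 364 CPM in KO and 435 CPM in WT.

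Genes that carry S1P or related lipids, or handle S1P outside the cell, all counted as neither or were too low to be tested. Spns1, which encodes a lysosomal lysophospholipid transporter related to the S1P exporter, stood at 42.7 CPM in KO and 52.9 CPM in WT, a ratio of 0.807 (0.723 to 0.902). The S1P exporter gene Spns2 had 4 reads in KO and 3 in WT, and Mfsd2b, the exporter of red cells and platelets, had 28 in KO and 27 in WT. Apom, the gene of the S1P carrier apolipoprotein M, was listed at 0 in both, as was the widely expressed Ormdl2, so a listed 0 is not read as absence of RNA. The fifth receptor gene, S1pr5, had 3 reads in KO and 2 in WT, and the phosphatase gene Sgpp2 had 1 in KO and 4 in WT. Plpp3, which encodes a lipid phosphatase that removes S1P at the cell surface, stood at 40.7 CPM in KO and 35.2 CPM in WT, a ratio of 1.16 (1.02 to 1.31).

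Among genes that relay or regulate S1P receptor signals, Rac2 and Cd69 were counted as higher. Of 19 tested genes of 20 listed, 2 were counted as higher, 0 as lower and 17 as neither, beside 6.47% higher and 7.23% lower over all tested genes. The median log2 ratio of the list was 0.04, beside 0.01 over all tested genes. Cd69, whose product binds S1PR1 and removes it from the surface of lymphocytes, had 105 reads, 6.81 CPM, in KO and 15 reads, 1.24 CPM, in WT, a ratio of 5.48 (3.18 to 10.1). Rac2, the blood cell Rac GTPase gene, stood at 518 CPM in KO and 263 CPM in WT, a ratio of 1.97 (1.90 to 2.06), while its relative Rac1 had a ratio of 0.881 (0.849 to 0.914). Klf2, a transcription factor gene that drives S1pr1 in T cells, had 206 reads in KO and 132 in WT, a ratio of 1.22 (0.977 to 1.53) that includes 1. The 6 tested G protein genes all counted as neither, with ratios from 0.742 for Gna11 to 1.16 for Gnai3. The arrestin genes that end receptor signalling went opposite ways, with Arrb1 at 1.29 (1.23 to 1.36) and Arrb2 at 0.780 (0.664 to 0.917).

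**Figure D5:**
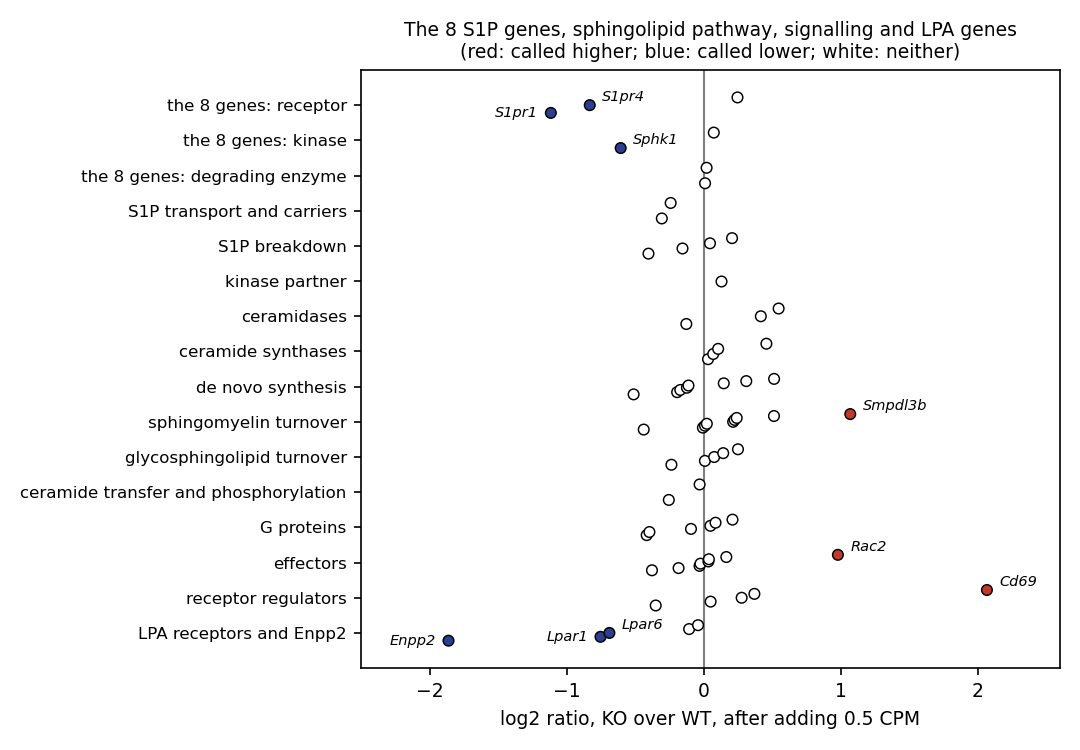
Log2 ratio of KO over WT after adding 0.5 CPM for each tested gene, by role, with the 8 S1P genes on top (red counted as higher, blue as lower, white as neither). Most pathway genes lie between -0.51 and 0.55, and the named points outside are S1pr1, S1pr4, Sphk1, Smpdl3b, Rac2, Cd69, Lpar1, Lpar6 and Enpp2.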

How the data were processed

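The deposited values are raw read counts for each gene symbol in a column for each library, per the file headers. The submitters' processing notes list HISAT2 and GRCm38. The program that counted reads, its annotation, strand option and read filters are not stated there or in the labels. TMM library sizes were computed with edgeR 4.0.16 (R 4.3.3). Ratios were taken on CPM, KO over WT, with exact Clopper-Pearson 95% intervals of the split of a gene's reads between the libraries (scipy 1.17.1), and log2 ratios after adding 0.5 CPM. Reads amplified by PCR with no molecular identifiers can repeat a molecule, and the intervals cover counting error only. A count of 3, the detection floor, is 0.194 CPM in KO and 0.248 CPM in WT. With 1 library per genotype no p-value was computed.

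The 8 genes, the lists and the rule for named genes were chosen with earlier results of these data known. Counts and medians of the lists are therefore descriptions, and nothing is read from them against all tested genes. That rule took the 8 genes, Tnfaip8l1, Lyz2, every counted gene of the lists and the 6 pathway genes of highest mean CPM. Other list genes were named after their values were seen, and the promoter motifs after the sequences were seen. Exon lengths and positions came from GENCODE M21 (GRCm38). Alternatives were total counts and DESeq2 1.42.0 size factors for scaling, other filters, call rules and added CPM. Some markers of the lists are not reported here.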

Additional observations from a re-analysis of the deposited data

How the results depend on the processing

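No paired analysis was possible because there were no replicates, and no library could be left out. S1pr1 was counted as lower under every alternative run (both other scalings, both other filters, both stricter call rules). The 3 genes counted as lower became 1, S1pr1, under a minimum mean of 10 CPM or with the nearer bound of the interval at 1.5-fold, and S1pr4 and Sphk1 then no longer counted. With total counts the ratio of Sgpl1 was 0.959, outside its interval, and 1 pathway gene, Kdsr, was counted as lower. At a mean of at least 10 CPM, 0 pathway genes and 1 signalling gene (Rac2) were counted as higher, and at 2-fold 1 signalling gene (Cd69). LPA genes counted as lower were 1 at 10 CPM (Lpar6), 1 at 2-fold and 1 by the nearer bound (Enpp2 in both). Their median log2 ratio was -0.11 with no filter, -0.36 at 10 CPM and -0.53 with 2 CPM added. Over all tested genes, those counted as higher and lower were 808 and 904. They were 412 and 223 at 10 CPM, 323 and 597 at 2-fold, and 357 and 509 by the nearer bound. Alternatives for the signalling, LPA and marker lists were chosen after seeing the data. Without its marker of highest mean CPM, the ratio of summed markers turned direction for macrophages (1.10, without Lyz2) and endothelial cells (0.707, without Vwf). Of the 12 macrophage markers left, 6 had ratios below 1. Of 114 recomputed values 86 stayed within their limits (the counting interval of a ratio, 1.5 times for a count, 0.1 for a median log2 ratio), 26 moved and 2 reversed. The 86 include counts of 0 that could not rise under a stricter filter or call rule. Only marker sums and genes counted as higher or lower could be labelled reversed, so other changes of direction are not in the 2 reversed. With total counts Sgpp1 (0.966), like Sgpl1, fell below 1. The median log2 ratio then fell below 0 for the pathway list (-0.03), the signalling list (-0.03) and all tested genes (-0.06). With no filter the median over all genes was -0.01. Depth limits S1pr3, S1pr4 and Sphk1, which had at most 52 reads in either library.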

Other observations

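Lysophosphatidic acid (LPA) is a lipid signal related to S1P, and its receptors belong in part to the same family. Of 7 LPA receptor and synthesis genes 5 were tested, and 3 were counted as lower, 0 as higher and 2 as neither, beside 7.23% lower and 6.47% higher over all tested genes. Their median log2 ratio was -0.69, beside 0.01 over all tested genes, and was -0.11 with no filter on low counts. The list was chosen with earlier results of these data known, so nothing is read from its count or median against that background. Enpp2, which encodes autotaxin, the secreted enzyme that makes LPA, had 39 reads, 2.53 CPM, in KO and 127 reads, 10.5 CPM, in WT, 4.16-fold lower (2.89 to 6.12). Lpar6, a receptor gene outside the S1P receptor family, stood at 75.7 CPM in KO and 122.3 CPM in WT, a ratio of 0.619 (0.573 to 0.669). Lpar1, a receptor gene of many stromal cells, had 34 reads in KO and 49 in WT, a ratio of 0.543 (0.340 to 0.859). Lpar5 was level at 31.4 CPM in KO and 32.3 CPM in WT. Stromal markers summed to 184 CPM in KO and 2032 CPM in WT, and their part in these genes was not tested.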
